A study of Homo sapiens with 24 samples.

Results

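In THP1 macrophages, 62 genes were on in only one of 2 cell lines, the wild type (WT) or the CD33 knockout (CD33KO). They were chosen from raw gene counts scaled by library total to CPM, the standard unit that sets a gene's count against all counts of its library. A gene was taken when its mean reached 5 CPM in both groups of one line and stayed under 1 CPM in both groups of the other. Of 60617 gene identifiers, 34700 had at least 1 count and 10798 passed 5 CPM in both groups of at least one line. Of these 10798 genes, 44 (0.407%) were on in CD33KO only and are called gained, and 18 (0.167%) were on in WT only and are called lost. A further 9651 genes were on in both lines. The words gained and lost name the line and no order in time. Because the levels in the lines chose the genes, the difference between the lines is given as a description with no test.

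THP1 is a human monocytic leukaemia line. All 4 groups were transduced with lentivirus for 24 h, rested for 48 h, selected with 1 µg/ml puromycin, treated with the phorbol ester PMA at 10 ng/ml for 48 h and kept without PMA for another 48 h. WT cells and CD33KO cells received either a pLKO.1 empty vector (shCTRL) or the same plasmid with a short hairpin RNA against PTPN6 (shPTPN6). The empty vector carries no hairpin, so loss of PTPN6 and any other effect of a hairpin cannot be told apart. WT shCTRL, WT shPTPN6 and CD33KO shCTRL had 6 libraries each, and 5 libraries were used for CD33KO shPTPN6. Each library was made from 100 ng of RNA with a 3′ end method, so that 1 transcript gives about 1 tag whatever its length and CPM can be set side by side between genes. The labels do not say whether replicates are separate cultures, so the p-values below measure only the spread between libraries, which may be technical. Nor do they say whether CD33KO is a single clone, so the deletion of CD33 and any other difference between the lines cannot be told apart.

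CD33 is an inhibitory sialic acid receptor of myeloid cells, and PTPN6 encodes the phosphatase SHP1 that such receptors recruit. Promoters of widely expressed genes often lie in stretches rich in CpG dinucleotides, while those of tissue-restricted genes often do not. Macrophages carry many G protein-coupled receptors and Fc receptors on their surface, and several of them are among the genes described here.

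Library totals ran from 2024032 to 6269304 counts, and 5 CPM corresponded to 10.1 counts in the smallest library. The CD33KO libraries were the shallower ones, with group medians of 2238440 and 2306120 counts, against 4624200 and 3916220 in WT. PTPN6 averaged 46.5 CPM in WT shCTRL and 10.4 CPM in WT shPTPN6, and 37.8 and 7.01 CPM in the matching CD33KO groups. CD33 tags averaged 47.3 and 87.4 CPM in WT and 20.2 and 22.2 CPM in CD33KO, but a 3′ tag outside the edited site does not check a knockout. A list of 22 monocyte and macrophage markers summed to 5716 to 6073 CPM in WT shCTRL and 5666 to 5883 CPM in CD33KO shCTRL, and to 9419 to 9836 and 9291 to 9642 CPM with shPTPN6. Of these markers, 21 averaged at least 1 CPM in each WT group and 20 in each CD33KO group, and 1 of them, FCGR1A, is itself a lost gene. The sums rest largely on LAPTM5 and CTSD, and single markers differed between the lines in both directions. In shCTRL, LYZ averaged 27.1 CPM in WT and 3.50 CPM in CD33KO, CD163 23.9 and 2.42 CPM, and TYROBP 1004 and 347 CPM, while CEBPB averaged 65.0 and 350.1 CPM. With shPTPN6, LYZ averaged 223 and 5.35 CPM and CD163 88.4 and 2.29 CPM. Their part in the results was not tested.

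Promoter sequence is a feature that the rule did not use directly. RefSeq promoter windows (GRCh38.p14, from 250 bases before to 50 after the start) were matched by symbol for 24 of the 44 gained and 13 of the 18 lost genes. The RefSeq start lay over 1000 bases from the GENCODE release 29 gene start for 11 of these 37, and 4 windows (LRFN5, ADGRD2, MUC16 and CLIC5) lay outside the GENCODE gene. The first 25 bases after the start were found in a GENCODE transcript of the gene for 26 of the 37, so a window may not be the start used in these cells. A window was called CpG-rich with an observed to expected CpG ratio of at least 0.6 and a GC content of at least 50%. Among gained genes 9 of 24 windows (37.5%) were CpG-rich, and among lost genes 7 of 13 (53.8%). The share was 82.7% of 8587 windows of genes on in at least one line and 46.9% of all 27305 windows. With a stricter limit (a ratio of at least 0.75 and a GC content of at least 55%) the shares were 37.5% of gained, 30.8% of lost, 66.2% of expressed and 35.3% of all windows. The lost genes thus lay above the gained genes under the first limit and below them under the second, and both lay below expressed genes under either limit. This is not a like comparison. Gained and lost genes had to be off in one line, while 9651 of the 10798 expressed genes were on in both. Promoters of widely expressed genes are often rich in CpG, and a set matched for this was not tested. The letters TATAAA, read on the gene's strand in the last 50 bases before the start, were in none of the 24 gained and none of the 13 lost windows, and in 2.92% of all windows. A match or its absence describes these letters only and says nothing of any factor.

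The 250 bases before the RefSeq start are shown for 1 CpG-rich promoter and 1 below that limit in each direction. Those below it lie near the ratio of 0.6, at 0.567 (ADGRD2) and 0.511 (LRRC4B) over the whole window. They are not the poorest in CpG, since FCGR1A, for example, had a ratio of 0.081. They are written 5′ to 3′ on the gene's strand, with every CG dinucleotide in capitals. LRFN5 (gained, CpG-rich, chr14:41606626-41606875, plus strand) holds 27 of them, and ADGRD2 (gained, not CpG-rich, chr9:124450201-124450450, plus strand) holds 15. INA (lost, CpG-rich, chr10:103276888-103277137, plus strand) holds 30, and LRRC4B (lost, not CpG-rich, chr19:50551043-50551292, minus strand) holds 13. From the GENCODE gene start these RefSeq starts lie 694 bases (LRFN5), 974 bases (ADGRD2), 25 bases (INA) and 17003 bases (LRRC4B) away.
LRFN5: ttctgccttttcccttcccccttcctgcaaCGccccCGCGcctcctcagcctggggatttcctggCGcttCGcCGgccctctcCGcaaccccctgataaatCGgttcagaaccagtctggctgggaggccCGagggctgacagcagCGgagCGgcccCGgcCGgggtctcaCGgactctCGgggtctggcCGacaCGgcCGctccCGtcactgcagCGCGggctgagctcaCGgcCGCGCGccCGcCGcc
ADGRD2: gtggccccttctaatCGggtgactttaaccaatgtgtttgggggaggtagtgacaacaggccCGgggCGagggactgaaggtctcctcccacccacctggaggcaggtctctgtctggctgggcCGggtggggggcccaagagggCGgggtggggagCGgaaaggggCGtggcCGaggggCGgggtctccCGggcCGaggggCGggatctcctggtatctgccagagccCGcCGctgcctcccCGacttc
INA: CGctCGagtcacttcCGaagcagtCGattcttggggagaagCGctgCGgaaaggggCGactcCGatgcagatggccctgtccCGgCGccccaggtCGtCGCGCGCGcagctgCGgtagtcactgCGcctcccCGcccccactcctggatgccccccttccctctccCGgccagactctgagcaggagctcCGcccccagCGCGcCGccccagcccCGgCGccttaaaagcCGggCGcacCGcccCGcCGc
LRRC4B: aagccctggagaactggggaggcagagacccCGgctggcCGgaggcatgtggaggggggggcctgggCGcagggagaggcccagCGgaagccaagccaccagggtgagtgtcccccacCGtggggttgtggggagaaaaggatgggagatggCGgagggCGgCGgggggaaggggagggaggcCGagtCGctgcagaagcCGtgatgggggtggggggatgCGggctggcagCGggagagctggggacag

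Gained genes were expressed at a median of 10.8 CPM in CD33KO, taking the mean of both group means, with a range from 5.44 to 221 CPM. Of the 44, 24 reached 10 CPM and 11 reached 20 CPM. In WT their median was 0.205 CPM, and 21 of the 44 had 5 counts or fewer over all 12 WT libraries together. Those with no WT count at all were ENSG00000248967, DRD1, ERVW-1 and ENSG00000259117. Against 3 counts over the line, the pooled level of ENSG00000248967 was 230-fold higher in CD33KO and that of ENSG00000259117 111-fold. The exact counting intervals of these ratios began at 186 and 89.0. No single CD33KO library fell as low as the highest WT library for any of the 44, which follows in large part from the rule. The tighter condition of at least 5 CPM in every CD33KO library and under 1 CPM in every WT library was met by 11 genes. Summed over the 44 genes, each WT library held between 9.98 and 17.2 CPM. The sum was 885 to 1006 CPM in the CD33KO shCTRL libraries and 662 to 747 CPM in the CD33KO shPTPN6 libraries. Low numbers of cells that express a gene and low RNA per cell cannot be told apart in bulk libraries.

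**Figure D1:**
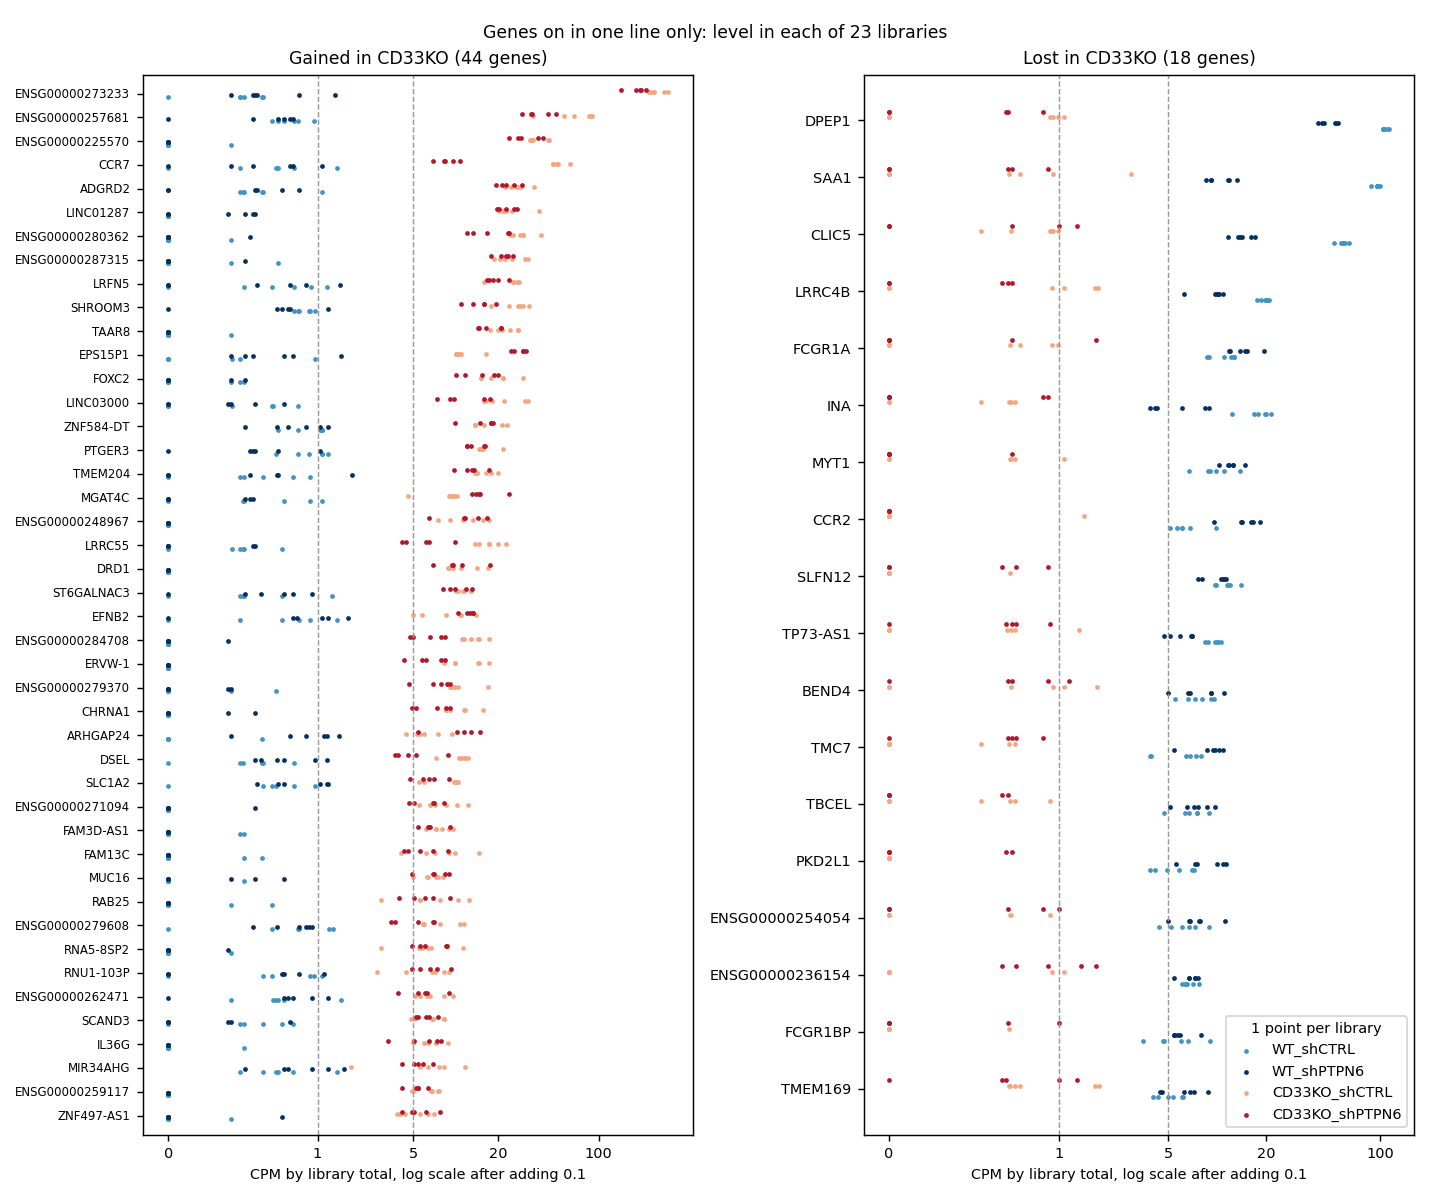
CPM (log axis, after adding 0.1) of the 44 gained genes (left) and 18 lost genes (right), 1 point per library coloured by group, with dashed lines at 1 and 5 CPM. For each gene, all libraries of the line where it is on lie above all libraries of the other line, which follows in large part from the rule. Only 11 gained genes and 1 lost gene keep to both dashed lines in every library.

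The gained genes with a known protein product included receptors of the cell surface. CCR7, the receptor for the lymph node chemokines CCL19 and CCL21 (chr17:40553769-40565472, minus strand), lay at 48.0, 49.9 and 62.8 CPM (lowest, median and highest) in CD33KO shCTRL. In CD33KO shPTPN6 its 5 libraries gave 10.7, 9.54, 8.31, 8.40 and 6.97 CPM, and no WT library exceeded 1.40 CPM. All CD33KO libraries lay above all WT libraries, and the 2 CD33KO groups did not overlap either.

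ADGRD2, an adhesion G protein-coupled receptor (chr9:124451425-124478589, plus strand), had 22.1, 27.0 and 35.7 CPM in CD33KO shCTRL. With shPTPN6 the libraries gave 29.2, 22.5, 25.8, 19.3 and 21.3 CPM, and the highest WT library had 1.07 CPM. The 2 CD33KO groups overlapped. DRD1, the D1 dopamine receptor (chr5:175440039-175444208, minus strand), gave no count in any of the 12 WT libraries. It had 8.79, 10.2 and 16.8 CPM in CD33KO shCTRL and 11.1, 17.3, 9.55, 9.39 and 6.97 CPM in CD33KO shPTPN6. Against 3 counts over all WT libraries, the pooled DRD1 level was 206-fold higher in CD33KO. The exact counting interval of the ratio began at 166, and both limits cover counting error only. PTGER3, a receptor for prostaglandin E2, averaged 16.1 ± 2.63 (SD, n = 6) and 13.7 ± 2.01 CPM (n = 5) in CD33KO. TAAR8, a trace amine-associated receptor, averaged 22.8 ± 4.14 and 17.4 ± 3.26 CPM there, and 1 count was found over all WT libraries. By symbol families, 4 of the 55 G protein-coupled receptors on in at least one line (7.27%) were gained, namely ADGRD2, CCR7, DRD1 and PTGER3. Over all 10798 genes on in at least one line the gained share was 0.407%. This family is named because it was the only one listed with 3 or more members in a direction. The family list did not hold TAAR8, so the 55 may be incomplete, and 1 receptor, CCR2, was lost.

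Adhesion, guidance, channel and transporter genes formed another set by known role. LRFN5, a synaptic adhesion protein, had 15.9, 25.3 and 27.8 CPM in CD33KO shCTRL and 17.2, 19.9, 16.6, 23.7 and 18.2 CPM in CD33KO shPTPN6. Its highest WT library had 1.47 CPM. EFNB2, a ligand of Eph receptors, averaged 9.13 ± 3.36 and 12.3 ± 1.20 CPM in CD33KO, with a highest WT library of 1.69 CPM. LRRC55, an auxiliary subunit of potassium channels, averaged 17.5 ± 3.26 and 6.25 ± 2.32 CPM. CHRNA1, the muscle-type acetylcholine receptor alpha subunit, averaged 10.8 ± 2.68 and 7.05 ± 1.91 CPM, and SLC1A2, a glutamate transporter, 8.66 ± 2.27 and 6.63 ± 1.53 CPM. Several of these are best known from nerve or muscle, and each is set here by its own values alone.

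Cytoskeletal and regulatory genes included SHROOM3, which binds actin and shapes epithelia, at 17.8, 27.9 and 32.7 CPM in CD33KO shCTRL and 15.8, 19.1, 15.8, 13.3 and 10.8 CPM in CD33KO shPTPN6. FOXC2, a forkhead transcription factor of vessel and mesenchyme development, averaged 20.1 ± 5.54 and 15.1 ± 4.27 CPM and had 5 counts over all WT libraries. ARHGAP24, a GTPase-activating protein for Rac, averaged 6.38 ± 1.81 and 10.9 ± 3.51 CPM. RAB25, a small GTPase of epithelial membrane recycling, averaged 7.44 ± 3.48 and 6.23 ± 1.98 CPM. MUC16, the mucin that carries the CA125 antigen, averaged 6.79 ± 1.11 and 7.24 ± 1.54 CPM, and IL36G, a cytokine of the interleukin-1 family, 6.80 ± 1.34 and 6.03 ± 1.87 CPM. ERVW-1, the retroviral envelope gene that encodes syncytin-1, had no count in WT and averaged 12.4 ± 3.48 and 6.52 ± 1.63 CPM in CD33KO. Against 3 counts over the WT libraries its pooled level was 183-fold higher, and the exact counting interval began at 148. MGAT4C, ST6GALNAC3 and DSEL, which act on glycans, averaged 8.67, 11.5 and 10.7 CPM in CD33KO shCTRL. The remaining coding genes, TMEM204, FAM13C and SCAND3, averaged 16.0, 8.52 and 6.71 CPM there.

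The highest gained gene codes for no known protein. ENSG00000273233, a long intergenic noncoding RNA (chr2:28810281-28810706, minus strand), had 224, 243 and 308 CPM in CD33KO shCTRL. With shPTPN6 its libraries gave 144, 199, 214, 183 and 195 CPM, and no WT library exceeded 1.36 CPM. It lies inside SPDYA on the opposite strand, and SPDYA itself stayed under 1 CPM on average in each group. ENSG00000257681, an antisense RNA that overlaps STAB2 (chr12:103746315-103768858, minus strand), had 34.8, 76.7 and 89.6 CPM in CD33KO shCTRL and 44.1, 33.8, 50.3, 34.1 and 29.4 CPM in CD33KO shPTPN6. ENSG00000225570, a second intergenic RNA of chromosome 2 (chr2:181690380-181693415, minus strand), had 33.2, 34.6 and 44.8 CPM and then 23.7, 28.6, 40.7, 27.2 and 37.6 CPM. Its WT libraries held 1 count in all. By the mean of both CD33KO groups these 3 RNAs lay above CCR7, but in CD33KO shCTRL alone CCR7 (51.8 CPM) lay above ENSG00000225570 (37.6 CPM).

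By annotation class, 23 of the 43 gained genes with a class were protein coding (53.5%). Another 10 were long noncoding RNAs (23.3%), 6 were pseudogenes (14.0%), 3 were unverified transcripts (6.98%) and 1 was a small RNA (2.33%). Among 10787 genes with a class that were on in at least one line the shares were 93.7%, 4.43%, 1.38%, 0.213% and 0.306%. Of the 18 lost genes 15 were coding (83.3%), 2 were long noncoding (11.1%) and 1 was a pseudogene (5.56%). In this annotation the lost pseudogene is TP73-AS1, while FCGR1BP is classed as coding under its earlier name FCGR1B. Noncoding and pseudogene classes thus took a larger part of the gained genes than of expressed genes, stated as counts. The comparison is not matched. Gained genes had a median of 10.8 CPM in CD33KO and had to be off in WT, while the expressed genes were of any level and mostly on in both lines. Genes matched for level were not tested. The other noncoding gained genes were LINC01287, ENSG00000280362, LINC03000, ZNF584-DT, ENSG00000284708, ENSG00000279370, FAM3D-AS1, ENSG00000279608, MIR34AHG, RNU1-103P and ZNF497-AS1, between 5.44 and 24.0 CPM in CD33KO. The pseudogenes were EPS15P1, ENSG00000248967, ENSG00000271094, RNA5-8SP2, ENSG00000262471 and ENSG00000259117. ENSG00000287315, at 24.8 and 21.9 CPM, has no class or position in GENCODE release 29. A pseudogene shares sequence with its parent gene, so the counts of this class are uncertain.

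**Figure D2:**
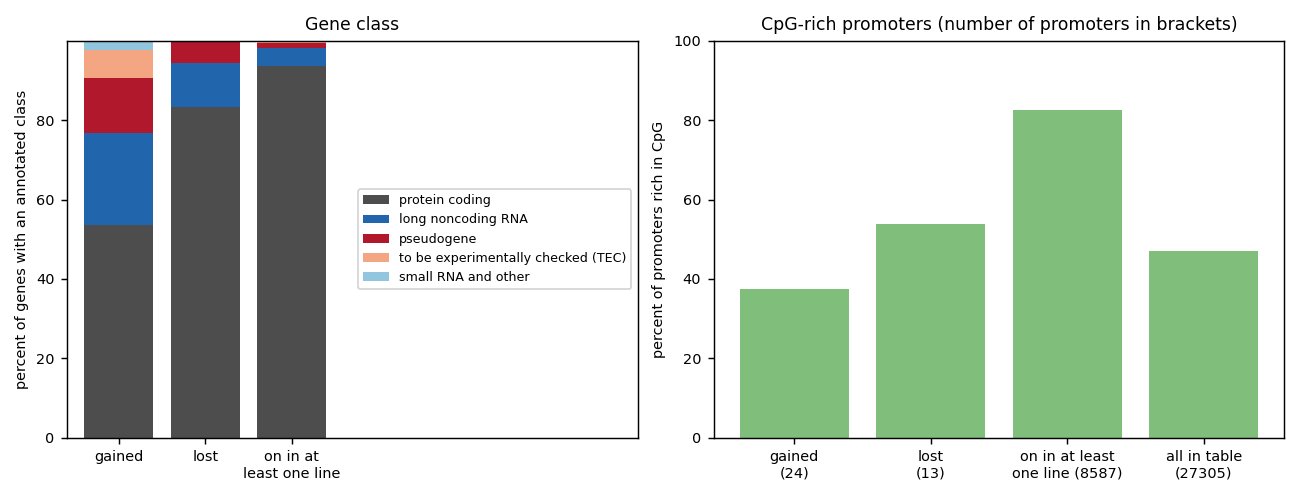
Left, stacked bars of the percent of gained genes, lost genes and genes on in at least one line that fall in each annotation class; right, percent of promoter windows that are CpG-rich in the same sets and in all windows. Coding genes make up 53.5% of the gained genes and 93.7% of genes on in at least one line, and CpG-rich windows 37.5% and 82.7%. The sets are not matched for level or for being off in one line.

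Lost genes were expressed at a median of 9.30 CPM in WT, with a range from 5.75 to 78.3 CPM, and at a median of 0.409 CPM in CD33KO. No lost gene was at 0 in all 11 CD33KO libraries. For all 18 the lowest WT library lay above the highest CD33KO library, which follows in large part from the rule. SLFN12 alone had at least 5 CPM in every WT library and under 1 CPM in every CD33KO library. The sum over the 18 genes was 389 to 411 CPM in WT shCTRL and 189 to 221 CPM in WT shPTPN6, and 4.58 to 10.4 CPM over all CD33KO libraries. In WT shCTRL most of the sum came from DPEP1, SAA1 and CLIC5. These 3 genes fell with shPTPN6, while 11 of the 18 had a positive log2 change.

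DPEP1, a membrane dipeptidase that cleaves leukotriene D4 (chr16:89613308-89638456, plus strand), was the highest lost gene. It had 104, 106 and 114 CPM in WT shCTRL and 42.0, 49.3 and 55.8 CPM in WT shPTPN6, and its highest CD33KO library had 1.07 CPM. SAA1, an acute-phase apolipoprotein (chr11:18266174-18269977, plus strand), had 88.2, 96.1 and 101 CPM in WT shCTRL and 8.51, 10.5 and 13.3 CPM in WT shPTPN6. Its highest CD33KO library had 2.93 CPM. The neighbouring paralog SAA2 averaged 3.34 and 0.518 CPM in WT and 0.118 and 0.281 CPM in CD33KO, and the near-identical pair can share tags. CLIC5, a chloride intracellular channel protein (chr6:45880827-46080348, minus strand), had 52.0, 59.5 and 64.7 CPM and then 11.8, 14.1 and 17.1 CPM in WT. In all 3 genes the WT groups did not overlap each other.

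Immune receptors were among the lost genes. FCGR1A, the high-affinity Fc receptor for IgG (chr1:149782671-149792518, plus strand), had 8.67, 11.7 and 12.8 CPM in WT shCTRL and 11.9, 14.4 and 19.6 CPM in WT shPTPN6, against at most 1.73 CPM in a CD33KO library. FCGR1BP, its near copy, averaged 5.77 ± 1.98 and 5.99 ± 0.980 CPM in WT, and the split of tags between these copies is uncertain. CCR2, the receptor for the monocyte chemokine CCL2 (chr3:46353734-46360928, plus strand), had 5.15, 6.10 and 9.83 CPM in WT shCTRL and 9.65, 15.3 and 18.4 CPM in WT shPTPN6. Its 3 counts in CD33KO all came from 1 library, at 1.46 CPM, and the pooled ratio of the lines was 92.5 with a counting interval from 31.5 to 450. SLFN12, a schlafen family ribonuclease, had 9.68, 11.7 and 14.2 CPM and then 7.61, 10.7 and 11.4 CPM in WT. Of 3 schlafens on in at least one line, SLFN12 was the 1 lost.

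Genes best known from neurons were also present. INA, the neurofilament internexin alpha (chr10:103277163-103290351, plus strand), had 12.5, 18.8 and 21.6 CPM in WT shCTRL and 3.86, 5.14 and 8.99 CPM in WT shPTPN6. LRRC4B, a synaptic adhesion protein (chr19:50516892-50568045, minus strand), had 17.7, 20.1 and 21.0 CPM and then 6.27, 10.1 and 10.9 CPM. MYT1, a zinc finger transcription factor of neural progenitors, had 6.75, 9.50 and 13.8 CPM and then 10.4, 12.3 and 14.8 CPM. The other lost genes, TP73-AS1, BEND4, TMC7, TBCEL, PKD2L1, ENSG00000254054, ENSG00000236154 and TMEM169, averaged between 5.15 and 9.64 CPM in WT shCTRL. A list of 9 neuronal markers held none of the 62 genes and summed to 224 to 261 CPM in WT shCTRL and 404 to 476 CPM in CD33KO shCTRL, mostly NCAM1. With shPTPN6 the neuronal sum was 187 to 221 CPM in WT and 485 to 509 CPM in CD33KO. Lists for HEK-293 and epithelial cells (12 genes, INA among them), fibroblast and endothelial cells (15), lymphoid cells (15) and erythroid cells (11) summed in CD33KO shCTRL to 107 to 140, 438 to 487, 620 to 706 and 25.6 to 50.9 CPM. In WT shCTRL they summed to 49.5 to 69.4, 201 to 229, 630 to 759 and 11.4 to 18.7 CPM. With shPTPN6 the sums were 86.4 to 111, 702 to 741, 331 to 375 and 11.7 to 26.9 CPM in CD33KO, and 62.8 to 105, 386 to 452, 174 to 206 and 8.99 to 14.1 CPM in WT. Single genes carried much of these sums. In shCTRL, PECAM1 averaged 169 CPM in WT and 369 CPM in CD33KO. GNLY averaged 364 and 551 CPM there and TRAC 326 and 105 CPM, so that the lymphoid sum hid opposite differences. Of the HEK-293 and epithelial list, CDH1 averaged 25.4 and 52.3 CPM in WT and CD33KO shCTRL. CDH2 averaged 14.9 and 64.0 CPM there, and INA 18.1 and 0.276 CPM. No other gene of that list averaged above 1.55 CPM in any group. The part of these markers in the results was not tested.

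Levels near the thresholds show how sharp the rule is. Gained genes just inside the 5 CPM limit in their lower CD33KO group were ZNF497-AS1 (5.23 CPM), DSEL (5.25 CPM) and ENSG00000259117 (5.33 CPM). Just outside it were ENSG00000247193 and LINC01505 (4.94 CPM each) and LINC01016 (4.93 CPM). Just under 1 CPM in their higher WT group were ZNF584-DT (0.912 CPM), PTGER3 (0.899 CPM) and ARHGAP24 (0.888 CPM), and just above it WNT7B and BICC1 (1.09 CPM each) and ENSG00000261036 (1.21 CPM). For lost genes the levels just inside were 5.15 (TMEM169), 5.48 (PKD2L1) and 5.77 CPM (FCGR1BP), and just outside 4.25 (ZNF536), 4.12 (LAMP5) and 4.01 CPM (PAQR5). On the low side ENSG00000236154, LRRC4B and TMEM169 lay just under the limit, at 0.968, 0.912 and 0.910 CPM. LINC02898, FGD2 and CD93 lay just above it, at 1.06, 1.09 and 1.19 CPM.

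The difference between shPTPN6 and shCTRL within the line where a gene is on is called the knockdown here. It may include effects of a hairpin other than loss of PTPN6. The rule did not use it, other than that both groups had to reach 5 CPM. This leaves out genes that lay below 5 CPM with either vector, and so can leave out strong responses to the knockdown. With the shCTRL groups alone in the rule, 88 genes were gained and 54 lost. The shares of all genes given below carry no such condition and are not a like comparison. The knockdown was tested with edgeR's quasi-likelihood test over 13098 genes, with Benjamini-Hochberg adjustment over all of them and a threshold of 0.05. All 44 gained and all 18 lost genes were tested. In CD33KO, 3 of the 44 gained genes were called higher and 10 lower with shPTPN6, or 6.82% and 22.7%. Over all genes tested 20.5% were called higher and 21.6% lower. The median log2 fold change of the 44 was -0.17, against -0.01 over all genes, and 34 were negative. Changes of at least 2-fold were called lower in 2 of the 44 and higher in 1, against 6.07% and 2.69% of all genes. The libraries of the 2 groups did not overlap for 8 of the 44, against 24.7% of all genes.

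CCR7 fell from 51.8 ± 5.69 CPM (SD, n = 6) to 8.78 ± 1.40 CPM (n = 5), a log2 change of -2.48 ± 0.17 (SE) with edgeR (adjusted p = 7.36e-25). LRRC55 fell by 1.40 ± 0.24 on the log2 scale (edgeR, adjusted p = 5.98e-07). The other gained genes called lower were ENSG00000273233, SHROOM3, LINC03000, ENSG00000284708, ENSG00000257681, ENSG00000280362, DSEL and ERVW-1, with log2 changes from -0.36 to -0.97. ENSG00000273233 changed by -0.36 ± 0.08 (edgeR, adjusted p = 0.000196). EPS15P1 rose from 11.4 ± 2.43 to 28.1 ± 2.90 CPM, by 1.39 ± 0.19 on the log2 scale (edgeR, adjusted p = 5.12e-10). The libraries of EPS15P1 gave 10.1, 10.4 and 16.3 CPM in CD33KO shCTRL and 25.5, 29.9, 24.5, 29.6 and 31.0 CPM in CD33KO shPTPN6, with no overlap. MGAT4C rose by 0.95 ± 0.23 (edgeR, adjusted p = 0.0004) and ARHGAP24 by 0.84 ± 0.27 (edgeR, adjusted p = 0.00698). The receptors ADGRD2, DRD1, PTGER3 and TAAR8 did not pass the test, with log2 changes of -0.12 ± 0.16, 0.01 ± 0.24, -0.15 ± 0.20 and -0.31 ± 0.17.

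Among lost genes in WT, 5 of 18 were called higher and 6 lower with shPTPN6, where 30.2% and 30.4% of all genes were called. The median log2 fold change of the 18 was 0.14, against 0 over all genes, and 11 were positive. SAA1 fell from 95.7 ± 4.03 to 10.6 ± 1.92 CPM (SD, n = 6 each), a log2 change of -3.09 ± 0.10 (SE) with edgeR (adjusted p = 2.49e-51). CLIC5 changed by -1.96 ± 0.10 (edgeR, adjusted p = 1.86e-34), INA by -1.48 ± 0.17 (edgeR, adjusted p = 5.41e-13) and DPEP1 by -1.05 ± 0.07 (edgeR, adjusted p = 2.66e-25). These 4 genes fell by at least 2-fold and 1 (CCR2) rose by as much, against 9.28% and 4.76% of all genes. LRRC4B and TP73-AS1 fell by 0.96 and 0.56 on the log2 scale. TP73, which overlaps TP73-AS1 on the opposite strand, averaged 7.43 CPM in WT shCTRL and 3.33 CPM in WT shPTPN6, and counts of such a pair may mix because the strand setting is not given in the sources used here.

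CCR2 rose from 6.61 ± 1.68 to 14.9 ± 3.05 CPM, or 2.39-fold with an SE of 0.18 on the log2 scale (edgeR, adjusted p = 9.97e-10), although the lowest shPTPN6 library (9.65 CPM) lay below the highest shCTRL library (9.83 CPM). PKD2L1, TMC7 and FCGR1A rose by 0.76 ± 0.21, 0.63 ± 0.20 and 0.48 ± 0.16 on the log2 scale. MYT1 rose by 0.42 ± 0.16 (edgeR, adjusted p = 0.0211), a call that was lost with DESeq2 (adjusted p = 0.0835). It was also lost without WT shCTRL replicate 3 (0.0738) or WT shPTPN6 replicate 1 (0.0734). The groups of 6 of the 18 lost genes did not overlap, against 37.5% of all genes.

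**Figure D3:**
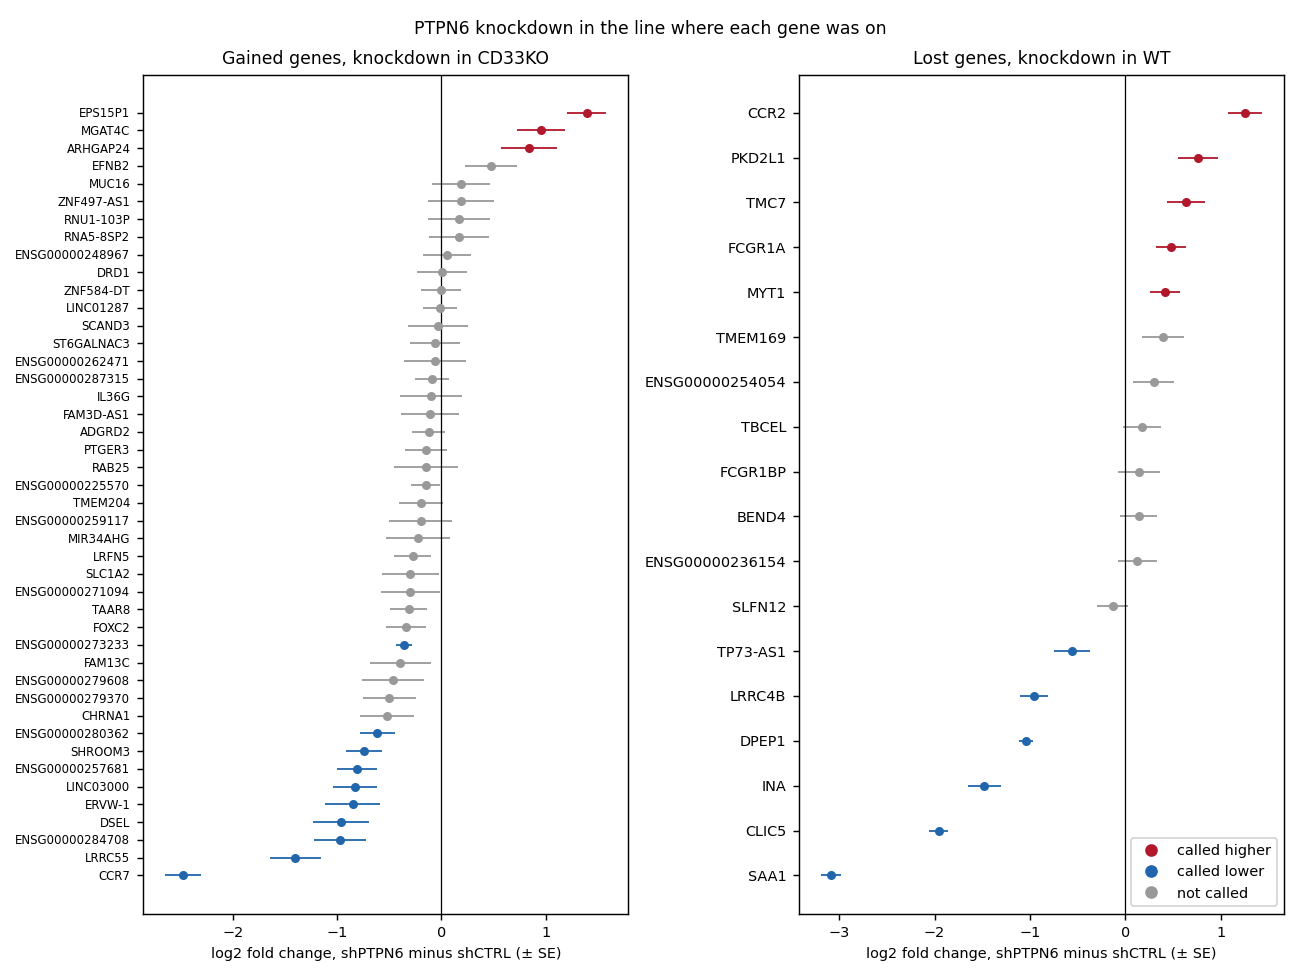
Log2 fold change with PTPN6 knockdown (shPTPN6 minus shCTRL) for each gained gene in CD33KO and each lost gene in WT, with standard errors as bars. Red marks genes called higher, blue lower and grey not called. CCR7 has the lowest value of the gained genes and SAA1 that of the lost genes.

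**Figure D4:**
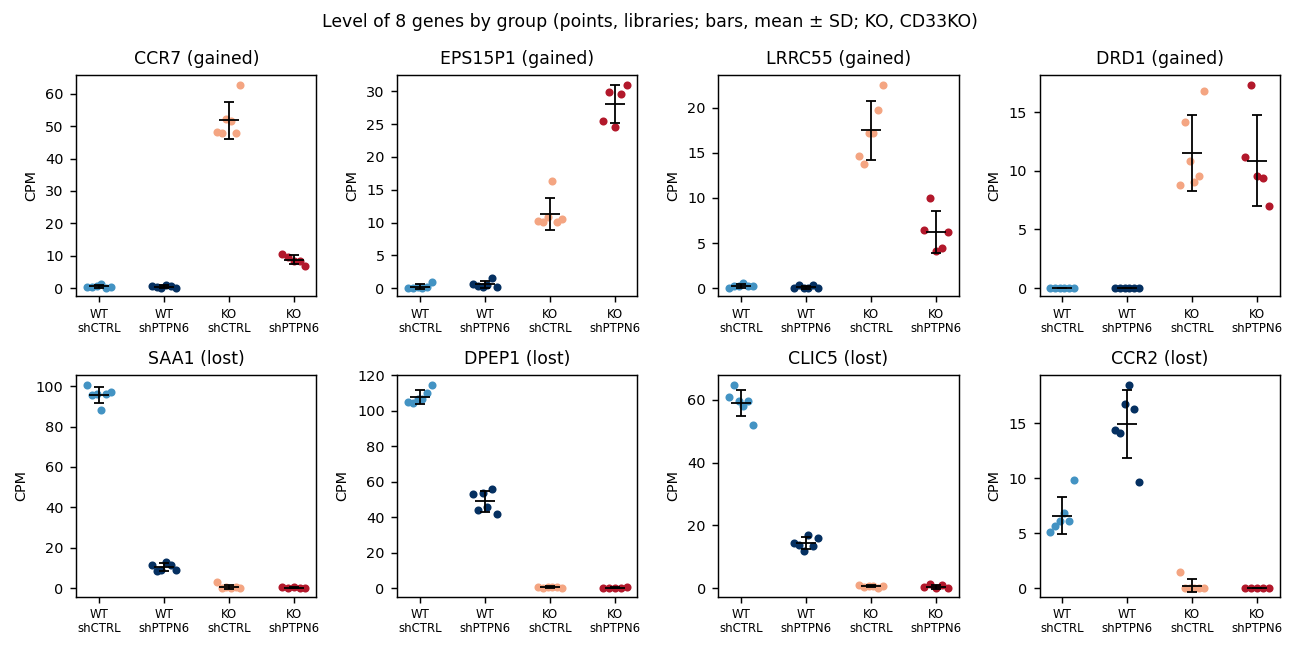
CPM of 4 gained genes (top) and 4 lost genes (bottom) in the 4 groups, 1 point per library, with bars for the mean ± SD. CCR7 averages 51.8 and 8.78 CPM in the CD33KO groups and SAA1 95.7 and 10.6 CPM in the WT groups, while the other line stays under 3 CPM in every library.

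On the genome the 62 genes were scattered. The 43 gained genes with a position lay on 19 chromosomes, with at most 5 on one (chromosomes 1 and 16). These were 0.447% of the genes on in at least one line on chromosome 1 and 0.994% on chromosome 16, against 0.407% over all. The 18 lost genes lay on 12 chromosomes, with at most 3 on one (chromosomes 1 and 10). Their shares there were 0.268% and 0.737%, against 0.167% over all. Whether any chromosome held more than its share was not tested. ZNF497-AS1 (chr19:58362585-58366591, plus strand) and ZNF584-DT (chr19:58404238-58408484, minus strand) were the only 2 gained genes within 100 kb of another, with starts 45899 bases apart. ZNF497-AS1 averaged 5.23 and 5.64 CPM in CD33KO, and ZNF584-DT 16.8 and 15.7 CPM. The zinc finger genes that they are named for are different genes. ZNF584 averaged 9.74 and 14.0 CPM in the WT groups (shCTRL, shPTPN6) and 16.2 and 12.1 CPM in the CD33KO groups. ZNF584-DT lies inside ZNF584 on the opposite strand, and counts of such a pair may mix because the strand setting is not given. ZNF584 was not called higher in CD33KO with both vectors. No lost gene had another lost gene within 1 Mb.

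Genes near the gained and lost ones were followed between the lines with both vectors, since they were not chosen by the rule. Of 60 tested genes with a start within 100 kb of 23 gained genes, 12 (20%) were higher in CD33KO with both vectors, where 19.3% of all genes were, and 9 went the opposite way. Of 42 tested genes near 16 lost genes, 12 (28.6%) were lower in CD33KO with both vectors, against 17.4% of all genes, and 1 was higher. These 12 are not all separate cases. BLOC1S2, SCD and OLMALINC lie near PKD2L1, RGS19 and OPRL1 lie near MYT1, and PECR overlaps TMEM169 on the opposite strand. Without neighbours that overlap the gained or lost gene, the counts were 11 of 55 (20%) near gained and 11 of 40 (27.5%) near lost genes. The share near gained genes was close to the share of all genes. One neighbour with a large difference between the lines was ENSG00000233539, a noncoding RNA near EPS15P1. It averaged 0.259 and 6.46 CPM in WT and 32.1 and 44.6 CPM in CD33KO. Another was SLFN11, next to SLFN12, which averaged 36.2 and 31.4 CPM in WT and 6.33 and 3.54 CPM in CD33KO. SLFN5, in the same family, averaged 95.7 and 47.6 CPM in WT and 72.6 and 61.3 CPM in CD33KO. CPNE7 lies near DPEP1 and averaged 15.4 and 6.80 CPM in WT and 2.83 and 1.15 CPM in CD33KO.

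Overlapping genes limit some values. Of the 44 gained genes 12 overlapped a gene of at least 1 CPM, 11 of them only on the opposite strand, and of the 18 lost genes 3 did. RNU1-103P lies inside EMC8 on the same strand, and EMC8 averaged 68.9 and 72.7 CPM in WT and 60.7 and 60.6 CPM in CD33KO. ENSG00000248967, with no count in WT, lies inside MSH3 on the opposite strand. MAPK10, opposite ARHGAP24, averaged 1.44 and 0.568 CPM in WT and 8.0 and 7.33 CPM in CD33KO.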

How the data were processed

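RNA was measured by 3′ end sequencing in 23 libraries of 4 groups. One labelled CD33KO shPTPN6 sample (replicate 2) is not analysed here. The deposited table holds raw gene counts, made with STAR 2.7.3a and featureCounts (Subread 2.0.0) on hg38, per the submitters' processing notes. The strand setting and annotation release are not given in the sources used here. Gene classes and positions come from GENCODE release 29 (GRCh38), in which 58542 of 60617 identifiers were found, and promoter sequences come from RefSeq. The table had 0 columns of no sample.

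CPM was computed by library total, with no further scaling, and the thresholds of 5 and 1 CPM were applied to group means. The knockdown and the neighbours were tested in one fit over all groups with edgeR 4.0.16 (TMM scaling, expression filter by group, robust quasi-likelihood test, R 4.3.3), with Benjamini-Hochberg adjustment. The steps were tested on simulated data. Counting intervals are exact at 95% and, like the 3-count limits, cover counting error only. The members and lists were chosen with earlier results of these data known. Genes given in full were those with the highest levels, nearby members, families with 3 or more members, the smallest adjusted p in the knockdown and those nearest the thresholds; other members appear more briefly. Alternatives were TMM and DESeq2 1.42.0 scaling, medians, other thresholds, single vectors, the DESeq2 test, no filter, a fit on 2 groups, a replicate block, leaving out each library and other windows. Replicate numbers did not pair the libraries: over 33 pairs with the same number the correlation of deviations ran from -0.0493 to 0.0324.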

Additional observations from a re-analysis of the deposited data

Results flagged for a closer look

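In single groups, 15 of 90 sets of values examined held a library far from the rest by a gap test at the 95% level, which chance flags in about 1 in 20 groups. CD33KO shCTRL replicate 5 had the deepest library of its group, at 3749258 counts against 2048161 to 2331569. The lost genes summed to 10.4 CPM in CD33KO shPTPN6 replicate 3, against 5.57 to 6.20 in the others.

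In CD33KO shCTRL, replicate 6 was apart for CCR7 (62.8 CPM, others 48.0 to 52.3) and LRFN5 (15.9, others 25.2 to 27.8). Replicate 4 was apart for DSEL (7.29, others 10.6 to 12.2), EPS15P1 (16.3, others 10.1 to 10.8) and PTGER3 (21.4, others 14.6 to 15.5). Replicate 2 was apart for LINC01287 (38.4, others 20.3 to 24.9) and MGAT4C (4.58, others 9.03 to 10.2), and replicate 3 for ENSG00000280362 (39.7, others 23.9 to 29.7). With shPTPN6 in CD33KO, DSEL was high in replicate 5 (8.89 CPM, others 3.71 to 5.20) and MGAT4C in replicate 1 (23.7, others 13.0 to 14.7).

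In WT, CCR2 was high in shCTRL replicate 6 (9.83 CPM, others 5.15 to 6.84). In shPTPN6 replicate 6, FCGR1BP was high (7.96, others 5.42 to 5.87) and LRRC4B low (6.27, others 9.77 to 10.9).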

How the results depend on the processing

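The number of gained and lost genes depended on the thresholds. It was 11 and 1 with at least 10 CPM on and under 0.5 CPM off, 72 and 34 with at least 3 CPM on, 88 and 54 when only the shCTRL groups were used, and 11 and 1 when every library had to pass. With TMM or DESeq2 scaling it was 48 and 16, and with group medians 46 and 22. Leaving out each library in turn gave 43 to 47 gained and 17 to 19 lost genes. In the same way, knockdown calls of gained genes ran from 3 to 4 higher and 10 to 10 lower, and of lost genes from 4 to 5 higher and 6 to 6 lower. Neighbours called in the direction of the gained gene were 5 of 30 (16.7%) within 50 kb and 61 of 268 (22.8%) within 500 kb, against 19.3% of all genes. For lost genes they were 8 of 16 (50%) and 36 of 160 (22.5%), against 17.4%. Leaving out libraries gave 10 to 14 and 11 to 13 within 100 kb. With promoter windows within 1000 bases of the GENCODE start only, chosen after seeing the data, 8 of 17 gained (47.1%) and 6 of 9 lost (66.7%) were CpG-rich. Within 1000 kb, 4 gained genes had another nearby. The replicate block left 3 gained genes called higher and 10 lower, 5 and 6 for lost genes, and 12 neighbours for each; its numbers do not pair the libraries. MYT1 was the named gene whose call was lost, in 3 of the alternatives run. The cause of these shifts was not tested. Depth limits values near 1 CPM, where the smallest library holds only a few counts.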
